A study of Mus musculus with 16 samples.

Results

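The genes described here are 10 markers of tubule injury and failed repair: Spp1, Clu, Vim, Havcr1, Lcn2, Krt8, Krt18, Sox9, Vcam1 and Cd44. They were chosen by gene symbol, and all 10 were found among the 30277 genes of a kidney RNA table. Expression was measured by sequencing polyadenylated RNA from the kidneys of 16 mice, 4 in each of 4 groups, of a Klotho mutation congenic on C57BL/6J. The male Kl/Kl mice, aged 46 to 59 days, and the female Kl/Kl mice, aged 47 to 52 days, were homozygous for the recessive mutation and are labelled as having renal failure. The control mice are labelled as having healthy renal function. The 4 male controls were 46 to 48 days old, 2 of them +/Kl and 2 of them +/+, and the 4 female controls were all +/Kl and 47 to 57 days old. The mutation is carried in the germ line, so no cell type of a Kl/Kl mouse is spared, and kidneys were perfused and flash frozen before RNA extraction.

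Klotho is a membrane protein of kidney tubule cells that acts as a coreceptor for a bone-derived hormone of phosphate balance, and mice that lack it develop a syndrome that resembles ageing. When tubule epithelium is damaged, surviving cells lose part of their transport programme and switch on genes of injury, adhesion and the cytoskeleton. Cells that recover turn these genes off, whereas cells that fail to repair keep expressing some of them, among them Vcam1. The 10 genes play several roles in this response. Spp1 (osteopontin, an integrin-binding glycoprotein), Clu (clusterin, an extracellular chaperone) and Lcn2 (lipocalin that binds iron-carrying siderophores) encode secreted proteins. Havcr1 (kidney injury molecule, a receptor for dying cells), Vcam1 (an integrin ligand) and Cd44 (the hyaluronan receptor) act at the cell surface. Vim (vimentin) and the keratin pair Krt8 and Krt18 build intermediate filaments, and Sox9 is a transcription factor of tubule regeneration.

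The 2 promoters printed here belong to Spp1 and Vim, the members that differed between the sexes on every scale used below. RefSeq promoter windows of 250 bases before to 50 bases after the gene start (GRCm38.p6) were matched for 7 of the 10 members. Capitals mark TATAAA and CCAAT, searched on both strands, so that ATTGG is CCAAT on the other strand. None of the marked matches overlap.
Spp1, chr5:104434861-104435160, plus strand: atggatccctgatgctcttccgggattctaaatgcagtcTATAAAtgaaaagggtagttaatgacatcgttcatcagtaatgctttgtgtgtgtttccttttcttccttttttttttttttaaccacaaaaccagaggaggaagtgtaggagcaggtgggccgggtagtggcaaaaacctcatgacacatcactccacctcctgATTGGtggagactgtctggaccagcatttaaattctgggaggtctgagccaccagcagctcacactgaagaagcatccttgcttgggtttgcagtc
Vim, chr2:13574061-13574360, plus strand: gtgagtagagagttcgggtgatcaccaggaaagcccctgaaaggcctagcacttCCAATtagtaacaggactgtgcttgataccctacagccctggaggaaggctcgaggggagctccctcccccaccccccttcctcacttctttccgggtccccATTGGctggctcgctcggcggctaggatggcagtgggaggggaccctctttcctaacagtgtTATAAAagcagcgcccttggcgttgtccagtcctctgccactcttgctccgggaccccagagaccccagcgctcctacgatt
In the Spp1 window TATAAA lay 211 bases and CCAAT 46 bases upstream of the start. In the Vim window TATAAA lay 32 bases upstream, and CCAAT was found 196 and 94 bases upstream. TATAAA was present in 13.6% and CCAAT in 37.4% of 32851 mouse promoter windows of this length. Among the 10 windows matched to members, which include 2 for Spp1 and 3 for Havcr1, TATAAA occurred in 3 and CCAAT in 2. The AP-1 motif TGANTCA was found in 1 member window, a Havcr1 window, and in 7.81% of all windows. The STAT motif TTCNNNGAA was found in 0 of the 10 member windows and in 8.30% of all windows.

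The libraries held 8209464 to 20109192 reads, as recovered from the deposited values. Kl followed the labels, at 0.258 to 1.49 TPM in male Kl/Kl kidneys against 7.82 to 11.7 TPM in male controls, and at 0.0728 to 0.222 TPM in female Kl/Kl kidneys against 2.04 to 5.73 TPM in female controls. Proximal tubule markers, all 20 of them tested, summed to between 480 and 1532 TPM. Among the 16 libraries, female control 3 had that lowest sum, 480 TPM, the fewest reads and the largest share of TPM in ribosomal RNA genes, 7.06% against 0.484% to 1.36% in the other 15 libraries. TPM here is a length-scaled expression value with a fixed total per library, and the length used is the whole gene from start to end, introns included. Tested genes as a whole had higher TPM in Kl/Kl kidneys, by a median log2 difference of 0.18 in males and 0.10 in females, which median-ratio scaling reduced to -0.01 in each sex. Values are therefore given both as deposited and after median-ratio scaling, which divides each library by its typical ratio to the others. The library names of the males and of the females repeat the same sample numbers, 17 to 24, so sex and any library set cannot be told apart.

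On mm39, the secreted members lie at chr5:104582984-104588917 (Spp1, plus strand), chr14:66205932-66218997 (Clu, plus) and chr2:32274645-32278265 (Lcn2, minus). The surface members lie at chr11:46625907-46670406 (Havcr1, plus), chr3:115903598-115923338 (Vcam1, minus) and chr2:102641486-102732011 (Cd44, minus). Vim lies at chr2:13578738-13587638 (plus), Sox9 at chr11:112673050-112678587 (plus), and the keratins lie on the same chromosome, at chr15:101905133-101912918 (Krt8, minus) and chr15:101936615-101940463 (Krt18, plus). Their spans range from 3.62 kb for Lcn2 to 90.5 kb for Cd44, so the deposited TPM of Cd44 is low for its reads.

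The 10 genes spanned more than 3 orders of magnitude in level. To compare genes, levels are given as RPKM, the reads per kilobase of exon scaled to the reads of the library. Spp1 was highest in every group, with 728 ± 214 RPKM in male Kl/Kl kidneys, 390 ± 84.3 in male controls, 1360 ± 107 in female Kl/Kl kidneys and 1105 ± 146 in female controls (SD, n = 4 each). Clu and Krt8 came next. Their ranges overlapped in both male groups, whereas Clu lay above Krt8 in both female groups. Krt18 and Vim followed, between 5.75 and 31.0 in all libraries. The lowest 5 were Havcr1, Lcn2, Vcam1, Cd44 and Sox9, and Sox9 averaged 0.410 in male Kl/Kl kidneys and 0.263 in male controls. The order among these low genes changed from group to group. Most neighbours overlapped, except in female Kl/Kl kidneys, where only Vcam1 and Havcr1 did. Havcr1 ranked sixth of the 10 in both male groups and last in female controls.

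**Figure D1:**
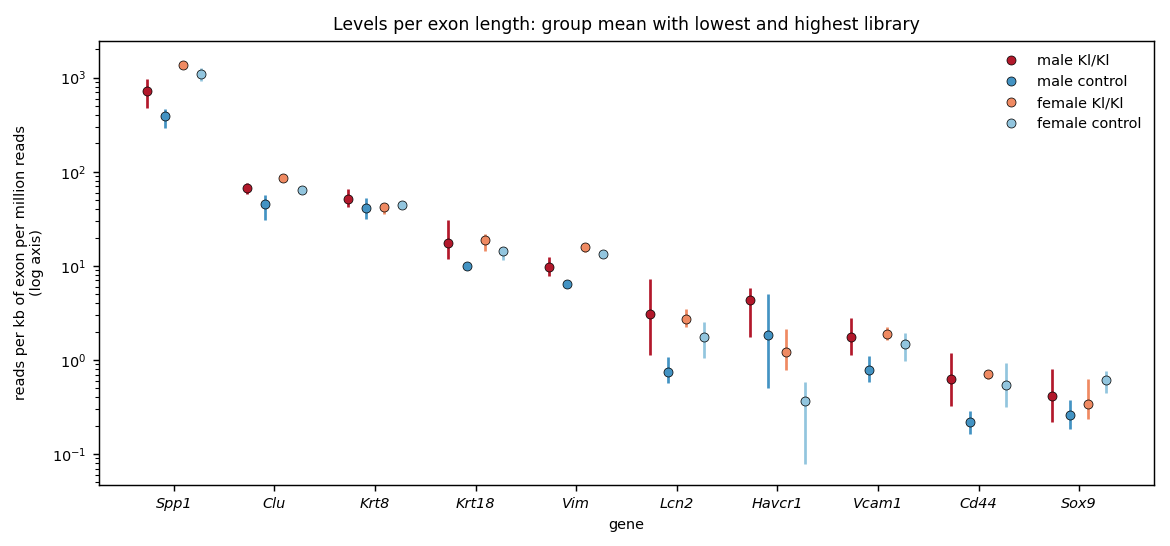
Level of each of the 10 genes in each group, in RPKM over exons on a log axis, with the point at the group mean and the line from the lowest to the highest of 4 kidneys. Spp1 stands highest in all 4 groups, and Sox9 and Cd44 lie among the lowest.

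In male kidneys the levels of Spp1, Clu and Lcn2, which encode the secreted proteins, lay higher in every Kl/Kl mouse than in any control as deposited, though none passed the adjusted threshold. Spp1 stood at 189.7, 221, 264 and 120.6 TPM in the 4 male Kl/Kl kidneys and at 82.5, 105, 73.6 and 120.3 TPM in the 4 male controls. The groups did not overlap, but male Kl/Kl 4 lay just above male control 4. The mean was 199 ± 60.5 TPM in male Kl/Kl kidneys against 95.4 ± 21.3 TPM in male controls (SD, n = 4 each), a ratio of 2.09, or 1.73 after median-ratio scaling. The log2(TPM + 1) difference was 1.02 ± 0.21 (SE), with an adjusted p of 0.101 in limma. In this bulk RNA, a change in the number of cells of a type and a change in RNA per cell cannot be told apart.

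Clu stood at 21.4, 18.1, 15.1 and 14.7 TPM in male Kl/Kl kidneys and at 12.5, 11.6, 7.32 and 10.3 TPM in male controls. All 4 male Kl/Kl kidneys lay above all 4 controls as deposited, and 3 of 4 did after scaling. The Clu difference was 0.69 ± 0.15 log2 as deposited and 0.44 ± 0.16 log2 after scaling (limma adjusted p = 0.104 and 0.905). Lcn2, the lipocalin, stood at 1.22, 1.77, 5.13 and 0.748 TPM in male Kl/Kl kidneys and at 0.351, 0.646, 0.489 and 0.395 TPM in male controls. The Lcn2 groups did not overlap on either scale, though they nearly met after scaling. Male Kl/Kl 3 stood well above the other 3 male Kl/Kl kidneys. Lcn2 passed the filter through 9 libraries at 1 TPM or more, none of them a male control. The TPM ratio was 4.71 as deposited, and the log2(TPM + 1) difference of 0.96 ± 0.28 (limma adjusted p = 0.204) was 0.59 without male Kl/Kl 3. Lcn2 was covered by 23 to 246 reads per library.

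The surface members had few reads, 2 to 236 per library for Havcr1, 22 to 104 for Cd44 and 96 to 319 for Vcam1. They fell below the TPM filter, which also depends on gene span, so their differences come from voom on recovered reads. Vcam1 had more reads in all than Lcn2, 2821 against 1178, but spans 19.7 kb against 3.62 kb. Havcr1 stood at 0.222, 0.293, 0.285 and 0.0822 TPM in male Kl/Kl kidneys and at 0.0222, 0.0507, 0.238 and 0.0350 TPM in male controls. Male control 3 reached the level of the male Kl/Kl kidneys, so the groups overlapped, and the other 3 controls lay below all male Kl/Kl kidneys. The Havcr1 difference was 1.51 ± 0.52 log2 (voom adjusted p = 0.598), and 2.22 log2 without male control 3. Vcam1, the adhesion molecule retained by cells that fail to repair, stood at 0.545, 0.810, 1.22 and 0.516 TPM in male Kl/Kl kidneys and at 0.245, 0.414, 0.239 and 0.322 TPM in male controls. The Vcam1 groups were apart as deposited and overlapped after scaling. Its difference was 1.00 ± 0.27 log2 (voom adjusted p = 0.34). Cd44 stood at 0.0359, 0.0397, 0.0867 and 0.0221 TPM in male Kl/Kl kidneys and at 0.0182, 0.0129, 0.01103 and 0.0152 TPM in male controls. All 4 male Kl/Kl kidneys exceeded all 4 controls for Cd44 on both scales, and the difference was 1.23 ± 0.35 log2 (voom adjusted p = 0.385). Without male Kl/Kl 3 the differences of Vcam1 and Cd44 were 0.83 and 0.95 log2.

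Among the filament genes, Vim stood at 4.43, 5.58, 6.55 and 3.79 TPM in male Kl/Kl kidneys and at 3.09, 2.83, 2.80 and 3.23 TPM in male controls. The groups were apart on both scales, though only narrowly after scaling. The Vim difference as deposited was 0.59 ± 0.13 log2 (limma adjusted p = 0.104). Krt18 stood at 5.01, 4.27, 11.4 and 4.96 TPM in male Kl/Kl kidneys and at 3.40, 2.80, 3.22 and 3.70 TPM in male controls. Its groups were also apart on both scales, narrowly after scaling, with male Kl/Kl 3 far above the other 3. The Krt18 difference was 0.71 ± 0.22 log2 (limma adjusted p = 0.209), and 0.43 log2 without that library. Krt8, its keratin partner, stood at 13.6, 10.3, 16.4 and 10.9 TPM in male Kl/Kl kidneys and at 9.04, 6.66, 12.1 and 8.91 TPM in male controls. The Krt8 groups overlapped, and the difference of 0.44 ± 0.17 log2 was 0.21 ± 0.14 log2 after scaling (limma adjusted p = 0.22 and 1.00). Krt8 overlaps a long noncoding gene on the opposite strand and Spp1 overlaps an unclassified transcript on its own strand, and the rule for such reads is not given in the sources used here. Sox9, with 12 to 43 reads per library, stood at 0.232, 0.240, 0.586 and 0.149 TPM in male Kl/Kl kidneys and at 0.144, 0.114, 0.254 and 0.187 TPM in male controls. The Sox9 groups overlapped, and its difference of 0.34 ± 0.37 log2 was 0.04 log2 without male Kl/Kl 3 (voom adjusted p = 0.973 and 1.00).

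**Figure D2:**
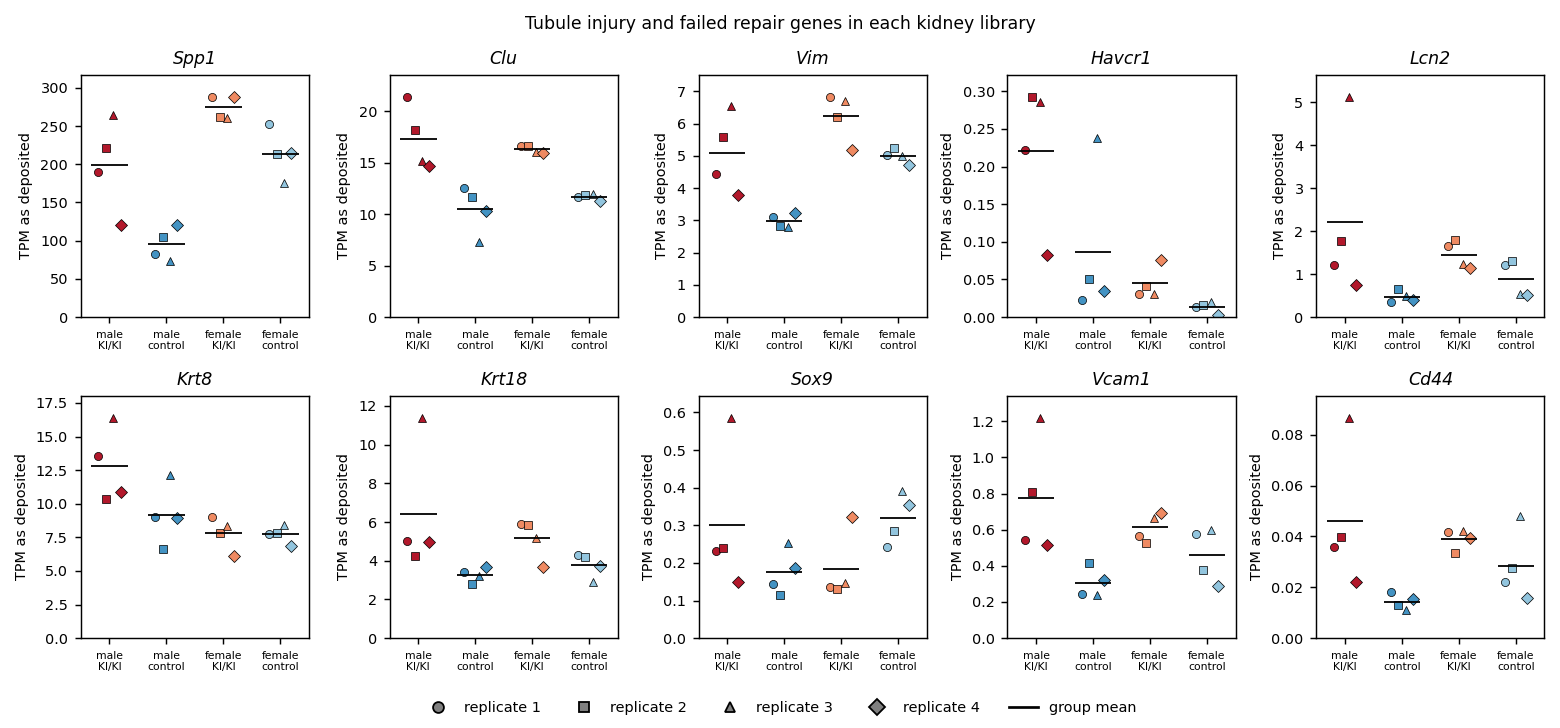
Deposited TPM of each of the 10 genes in each of 16 kidneys by group, with a horizontal line at the group mean (n = 4 each) and a marker shape for each replicate number. In males the Kl/Kl points lie above the control points for 7 of the 10 genes, and in females for 3 of 10.

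None of the 10 genes passed an adjusted p of 0.05 in males. The limma test of 6 members on log2(TPM + 1) called 0, against 8 of 8059 genes, or 0.0993%. Voom on reads called 0 of 10 members, against 6 of 17448 genes, or 0.0344%. At an unadjusted p under 0.05, 6 of 6 members were higher in limma, where 19.5% of all tested genes were. After median-ratio scaling 5 of 6 members were, against 2.2% of all tested genes, and in voom 8 of 10 members were, against 2.95%. All 4 male Kl/Kl kidneys lay above all 4 male controls for 7 of the 10 members as deposited and for 5 of 10 after scaling. Of the 6 members tested, 5 were apart in this way as deposited and 4 after scaling, against 11.6% and 2.16% of all tested genes. The gaps of these 4 after scaling were small, from the lowest Kl/Kl kidney to the highest control. In scaled TPM they were 108.3 against 107.0 for Spp1 and 3.12 against 3.06 for Vim. For Krt18 they were 3.52 against 3.36, and for Lcn2 0.672 against 0.657. All 10 voom differences were positive, against 46.6% of all genes. The median difference of the 10 members in voom was 0.64 log2, beside -0.02 log2 over all genes.

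The 4 male Kl/Kl kidneys were not alike. Male Kl/Kl 3 was the highest of its group for 8 of the 10 genes on both scales. Its median log2 ratio to the male controls over the 10 genes, after scaling, was 1.44, against 0.54, 0.89 and 0.48 in male Kl/Kl 1, 2 and 4. Male Kl/Kl 4, the oldest mouse at 59 days, was the lowest of its group for 8 of 10 genes as deposited and for 5 of 10 after scaling. Without male Kl/Kl 4, Spp1 (1.24 log2, adjusted p = 0.0212) and Vim (0.70 log2, adjusted p = 0.0422) passed in limma. Neither gene passed in any of the 16 voom fits that left out 1 library each (lowest voom adjusted p = 0.152 and 0.162). With age as a covariate, limma on TPM as deposited called 909 genes and 5 of the 6 members, Spp1, Clu, Vim, Lcn2 and Krt18. Voom with age called 4 genes and 0 members. The age term rests largely on male Kl/Kl 4 and on female control 3, aged 57 days. All other mice were at most 52 days old, so age and these libraries cannot be told apart. Male Kl/Kl 3 also had the largest leukocyte marker sum of the male kidneys, 70.2 TPM against 24.3 to 33.9 TPM in male controls, and the smallest proximal tubule marker sum, 957 TPM against 1043 to 1427 TPM in male controls. The part of these in the members' levels was not tested.

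**Figure D3:**
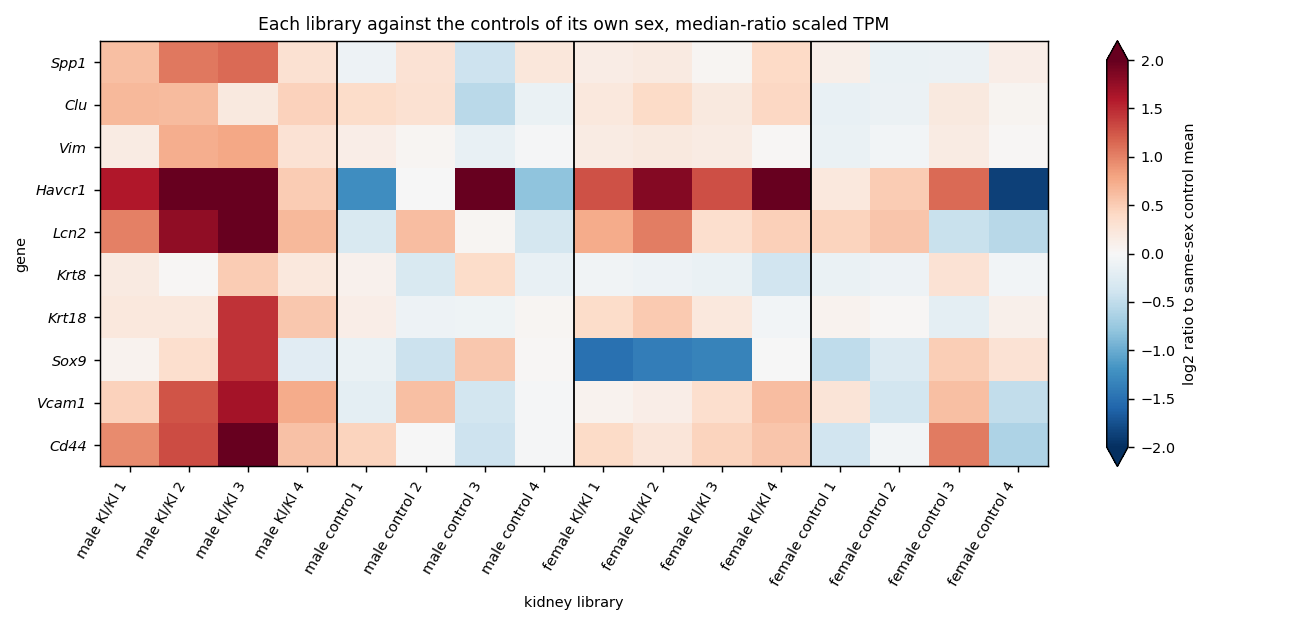
Log2 ratio of each of 16 kidney libraries to the mean of the same-sex controls, from median-ratio scaled TPM, with genes in rows and colour capped at 2 in either direction. Male Kl/Kl 3 has the highest value of its group for 8 of the 10 genes, and Sox9 is low in 3 of 4 female Kl/Kl kidneys.

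In female kidneys Clu, Spp1 and Havcr1 were higher in every Kl/Kl mouse than in any control as deposited, and none of the 10 genes passed the test. Clu stood at 16.6, 16.6, 16.01 and 15.9 TPM in female Kl/Kl kidneys and at 11.6, 11.8, 11.9 and 11.3 TPM in female controls. As deposited the groups were apart with a narrow spread in each. Clu averaged 16.3 ± 0.367 TPM in female Kl/Kl kidneys against 11.7 ± 0.289 TPM in female controls (SD, n = 4 each). After scaling the groups nearly met, with female Kl/Kl 3 at 16.607 and female control 3 at 16.601 scaled TPM. The SDs were then 1.40 scaled TPM in female Kl/Kl kidneys and 1.61 in female controls. The Clu difference was 0.45 ± 0.15 log2 (limma adjusted p = 0.727) and 0.28 ± 0.16 log2 after scaling.

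Spp1 stood at 289, 262, 261 and 288 TPM in female Kl/Kl kidneys and at 253, 213, 175 and 215 TPM in female controls. These groups were apart as deposited but overlapped after scaling. The Spp1 difference was 0.37 ± 0.21 log2 as deposited and 0.19 ± 0.19 log2 after scaling (limma adjusted p = 0.727 and 0.948). Havcr1 stood at 0.0311, 0.0408, 0.0306 and 0.0760 TPM in female Kl/Kl kidneys and at 0.0134, 0.0164, 0.0206 and 0.00268 TPM in female controls. The Havcr1 groups were apart on both scales, but female control 4 rested on 2 reads. The Havcr1 difference was 1.74 ± 0.94 log2 (voom adjusted p = 1.00). Lcn2 stood at 1.65, 1.79, 1.22 and 1.15 TPM in female Kl/Kl kidneys and at 1.21, 1.31, 0.530 and 0.510 TPM in female controls, which overlapped.

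Sox9 had the opposite sign in females. It stood at 0.136, 0.131, 0.148 and 0.321 TPM in female Kl/Kl kidneys and at 0.243, 0.285, 0.392 and 0.355 TPM in female controls. Female Kl/Kl 4 lay among the controls and the other 3 below them. The Sox9 difference was -0.96 ± 0.38 log2 (voom adjusted p = 1.00), on 12 to 43 reads per library. Krt8 averaged 7.84 ± 1.27 TPM in female Kl/Kl kidneys and 7.73 ± 0.645 TPM in female controls (SD, n = 4 each). Its difference was 0.01 ± 0.17 log2, and -0.15 ± 0.14 log2 after scaling. Vim (0.26 ± 0.13 log2) and Krt18 (0.36 ± 0.22 log2) in limma, and Vcam1 (0.32 ± 0.26 log2) and Cd44 (0.48 ± 0.32 log2) in voom, had overlapping groups.

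As in males, 0 of 6 members passed in limma and 0 of 10 in voom, against 1 of 8059 genes (0.0124%) and 2 of 17448 genes (0.0115%). At an unadjusted p under 0.05, limma gave 1 member of 6 higher, Clu, against 4.33% of tested genes, and 0 of 6 after scaling, against 1.97%. Voom gave 0 of 10 higher, against 1.3%, and 1 of 10 lower, Sox9, against 1.27%. All 4 female Kl/Kl kidneys lay above all 4 female controls for 3 of the 10 members as deposited and 2 of 10 after scaling. Of the 6 tested members these were 2 and 1, against 2.79% and 0.745% of all tested genes. The 1 after scaling was Clu, whose groups nearly met.

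With each sex weighted equally, Clu differed between Kl/Kl and control kidneys by 0.57 ± 0.10 log2 as deposited (limma adjusted p = 0.0782). Spp1 differed by 0.70 ± 0.15, Vim by 0.43 ± 0.09, Lcn2 by 0.68 ± 0.20, Krt18 by 0.53 ± 0.15 and Krt8 by 0.23 ± 0.12 log2 (limma adjusted p = 0.13 to 0.217). After median-ratio scaling the differences of the 6 members were 0.03 to 0.55 log2 (limma adjusted p = 0.690 to 0.969). That of Clu was then 0.36 ± 0.11 log2 (limma adjusted p = 0.738). No member passed in limma or voom, against 0.0372% of genes in limma and 0.0229% in voom. At an unadjusted p under 0.05, 5 of 6 members were higher in limma, against 25.9% of tested genes. After scaling 5 of 6 were, against 2.36%, and in voom 8 of 10 were, against 2.87%. In limma, Clu passed without male Kl/Kl 3 (0.60 log2, adjusted p = 0.0476), and Clu, Spp1 and Vim passed without male Kl/Kl 4 (0.60, 0.81 and 0.48 log2, adjusted p = 0.0369, 0.0261 and 0.0261). None of these 3 genes passed in the 16 voom fits that left out 1 library each (lowest voom adjusted p = 0.526, 0.304 and 0.296).

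**Figure D4:**
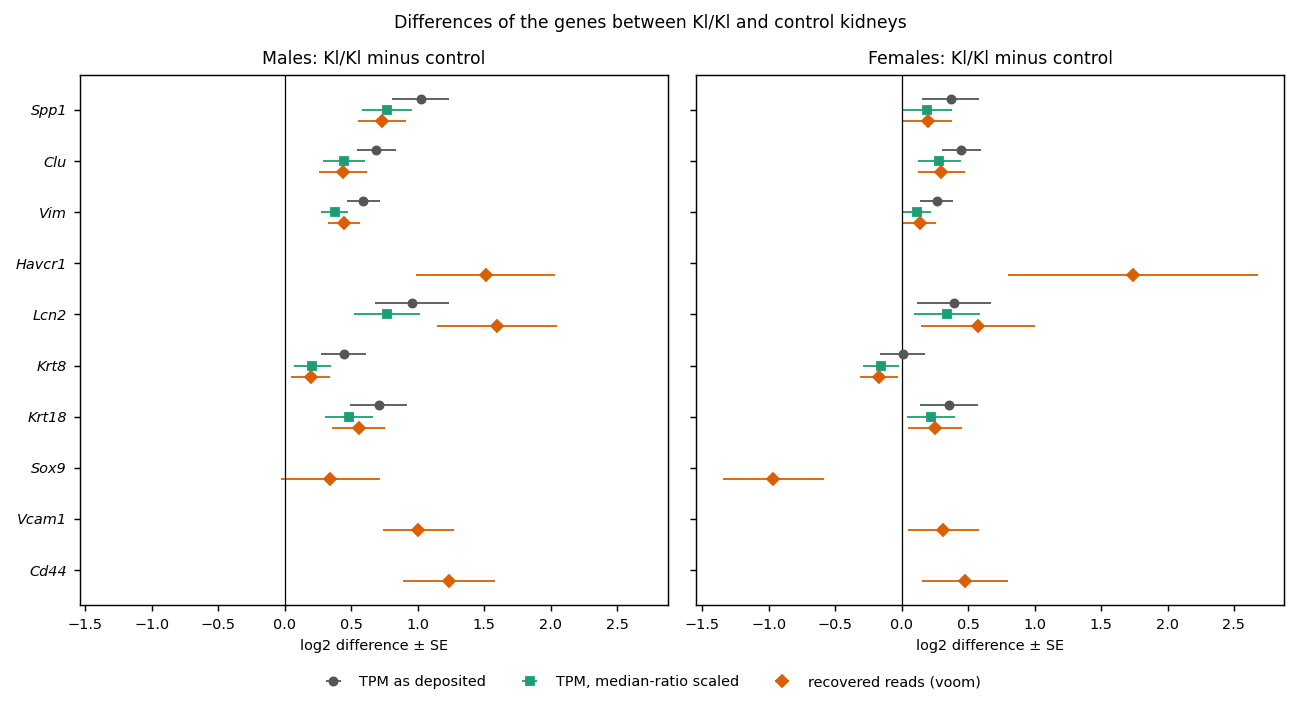
Log2 difference of Kl/Kl against control with its SE for each gene in males and in females, from limma on TPM as deposited (circles), limma on median-ratio scaled TPM (squares) and voom on recovered reads (diamonds), over 16 kidneys. In voom all 10 male differences are above 0, and Krt8 and Sox9 are below 0 in females.

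The differences between Kl/Kl and control were set against each other by an interaction term, male minus female. It was positive for 9 of 10 members in voom, against 47.2% of all genes, and Havcr1 was the exception at -0.23 ± 1.08 log2. Spp1 had an interaction of 0.65 ± 0.30 log2 (limma adjusted p = 1.00), and Sox9 one of 1.30 ± 0.53 log2 (voom adjusted p = 1.00). No member and no gene passed, 0% in limma, where 175 of 8059 genes had an unadjusted p under 0.05, and 0% in voom, where 419 of 17448 did. A difference between the sexes in the effect of Kl/Kl was therefore not detectable for any of the 10 genes with 4 kidneys a group.

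Several members differed between male and female libraries, tested with each genotype weighted equally. Sex and any library set cannot be told apart in these differences. Spp1 was lower in males, at 199 ± 60.5 TPM in male against 275 ± 15.5 TPM in female Kl/Kl kidneys, and at 95.4 ± 21.3 TPM in male against 214 ± 31.7 TPM in female controls (SD, n = 4 each). All 4 male controls lay below all 4 female controls, as did 7.3% of all tested genes. The Spp1 difference was -0.85 ± 0.15 log2 as deposited and -1.29 ± 0.13 log2 after scaling (limma adjusted p = 0.000158 and 3.04e-06). Vim was also lower in males, by -0.43 ± 0.09 log2 as deposited and -0.79 ± 0.07 log2 after scaling (limma adjusted p = 0.000533 and 1.25e-06). Of the markers of fibroblasts and mural cells, 4 of 6 tested passed as lower in males as deposited, 6 of 6 after scaling and 9 of 9 in voom, where their median difference was -0.77 log2. Of 20 proximal tubule markers, 17 passed as higher in males as deposited, and after scaling 14 passed as higher and 2 as lower. Their part in the sex differences of the members was not tested. Male controls averaged 2.99 ± 0.207 TPM of Vim, against 5.001 ± 0.214 TPM in female controls (SD, n = 4 each). Tested genes as a whole were higher in males by a median of 0.30 log2 as deposited, so the sex differences depend on the scale. Krt8 was higher in males as deposited, by 0.42 ± 0.12 log2 (limma adjusted p = 0.00631), and not after scaling, at 0.01 ± 0.10 log2 (adjusted p = 0.908).

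After scaling, Clu and Krt18 were lower in males too, by -0.46 ± 0.11 and -0.34 ± 0.13 log2 (limma adjusted p = 0.00284 and 0.0317). In voom Krt18 differed by -0.40 log2 (adjusted p = 0.0265) and passed in 13 of the 16 fits that left out 1 library each. It did not pass without female Kl/Kl 2 (voom adjusted p = 0.0567), male Kl/Kl 1 (0.0585) or male Kl/Kl 2 (0.0614). In voom, Cd44 (-0.77 ± 0.24 log2, adjusted p = 0.0115) and Vcam1 (-0.55 ± 0.19 log2, adjusted p = 0.0211) were lower in males, though without male control 3 the Vcam1 difference was -0.48 log2 (adjusted p = 0.0506). In limma with a filter of 0.1 TPM, the Vcam1 difference as deposited was -0.02 ± 0.08 log2 (adjusted p = 0.855). The male over female ratio of mean deposited TPM was 1.18 for Cd44 and 1.26 for Vcam1 in Kl/Kl kidneys. In controls these ratios were 0.507 and 0.664. After median-ratio scaling, which voom also used for its library sizes, they were 0.822 and 0.889 in Kl/Kl kidneys. The scaled ratios in controls were 0.376 and 0.504. Havcr1 was higher in males in voom, by 1.90 ± 0.54 log2 (voom adjusted p = 0.00695), with 21 or more reads in each male library. In all, 3 of 6 members passed in limma as deposited, 4 of 6 after scaling and 7 of 10 in voom. These counts stand beside 68.2%, 60.6% and 53.2% of all genes tested, so differences between male and female libraries were common across the table. Of the 5493 genes called as deposited, 4713 were higher and 780 lower in males, and after scaling 2446 were higher and 2435 lower.

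Other genes of the injured tubule, 39 in a list that shares no member with the 10, did not pass in either sex. In males, 9 of 18 tested genes were higher and 1 was lower at an unadjusted p under 0.05 in limma. Of all tested genes 19.5% were higher at that threshold. In voom 8 of 38 were higher and 2 lower, and 2.95% of all genes were higher. After scaling, 1 of 18 was higher and 2 were lower, at 2.2% and 2.69% of all tested genes. Among its most abundant members, Cd24a differed by 0.56 ± 0.21, Wfdc2 by 0.70 ± 0.23 and Ccn2 by 0.26 ± 0.27 log2 in males (limma adjusted p = 0.219, 0.216 and 0.504). Genes for receptors and binding partners of the 10 proteins, such as Lrp2, the endocytic receptor megalin that takes up filtered proteins, also held 0 of 7 tested genes that passed. Lrp2 differed by 0.03 ± 0.22 log2 in males and by -0.23 ± 0.22 log2 in females (limma adjusted p = 0.933 and 0.745).

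Markers of other cell types were read beside the members. The 15 leukocyte markers summed to 28.2 to 70.2 TPM in male Kl/Kl kidneys against 24.3 to 33.9 TPM in male controls, and to 36.4 to 37.8 TPM in female Kl/Kl kidneys against 21.4 to 29.3 TPM in female controls. The leukocyte ranges thus overlapped in males and were apart in females. Of 9 leukocyte markers tested, 5 in males and 3 in females had an unadjusted p under 0.05 and were higher, beside 19.5% and 4.33% of all tested genes, and 0 passed in limma. After scaling these were 1 in males and 3 in females, beside 2.2% and 1.97%. Markers of fibroblasts and mural cells, which also express Vim, summed to 11.7 to 14.8 TPM in male Kl/Kl kidneys against 7.74 to 12.2 TPM in male controls. Haemoglobin genes summed to 96.0 to 479 TPM in male Kl/Kl kidneys against 10.97 to 142 TPM in male controls, and to 16.5 to 58.1 TPM in female Kl/Kl kidneys against 3.30 to 114 TPM in female controls, with a lower mean in female Kl/Kl kidneys (38.2 against 61.3 TPM). No listed marker had 0 reads in every library, and the part of these cells in the members' levels was not tested.

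Over the 16 libraries, the genes whose levels most resembled the mean of the 6 tested members, each put on the same scale, were Kng2, Cyp4a14 and Slc23a1 among 1820 genes compared. Their Pearson r values were 0.902, 0.900 and 0.893, with sex, library and depth shared by all points. Kng2 averaged 4.94 ± 0.520 scaled TPM in male Kl/Kl kidneys and 3.83 ± 0.108 in male controls, and 6.03 ± 0.499 in female Kl/Kl kidneys and 6.07 ± 0.397 in female controls (SD, n = 4 each). Of the 4 group means, that of male controls was the lowest.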

How the data were processed

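The authors deposited 1 table of TPM, made with Partek on mm39 per the submitters' processing notes. No source used here names the aligner, the counting rule or the annotation. The deposited TPM sum to about 309446 in each library and follow reads plus 0.0001 over gene length, introns included. Reads were recovered from this relation, and 81.2% of values under 20 reads were whole within 0.1. Genes at 1 TPM or more in at least 4 of 16 libraries (8059) were fitted as log2(TPM + 1) by limma 3.58.1 in R 4.3.3 with a mean per group, an intensity trend and 12 residual degrees of freedom. Differences on this scale are understated for low genes. P-values were adjusted by Benjamini-Hochberg over all genes of a contrast, at 0.05. Voom used genes with 10 reads or more in 4 libraries. Its library sizes were median-ratio factors of the reads times the geometric mean of the read totals. The tests were checked on simulated data. Each animal gave 1 library, and no libraries were duplicates. The 10 members and 12 further lists were chosen with earlier results of these data known. Named genes are the members, and of each list those passing, or else the 3 most abundant. Exon lengths are from GENCODE M21. Depth limits precision for genes with few reads. Alternatives covered scaling, filter, pseudocount, weights, age, name series, controls, a replicate block and each library left out.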

Additional observations from a re-analysis of the deposited data

Results flagged for a closer look

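Of 40 groups of 4 values, 1 for each member and group, 3 held a library far from the other 3 by Dixon's test, where chance gives about 5%. Havcr1 was 0.238 TPM in male control 3, against 0.0222 to 0.0507 TPM in the other male controls. Krt18 was 11.4 TPM in male Kl/Kl 3, against 4.27 to 5.01 TPM in the other male Kl/Kl kidneys. Sox9 was 0.321 TPM in female Kl/Kl 4, against 0.131 to 0.148 TPM in the other female Kl/Kl kidneys.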

How the results depend on the processing

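In males, the 8 genes passing, 6 of them higher in Kl/Kl, became 909 with age as a covariate, 249 with library weights (which stopped short of their convergence tolerance), 25 without both female control 3 and male Kl/Kl 3, 3 with a pseudocount of 0.1 or the libraries of the contrast alone, 2 with a filter of 0.1 TPM or median-ratio scaling (0 higher and 2 lower), 5 with that scaling without male Kl/Kl 3 (added after seeing the data, as were the further voom fits), and 1 with heterozygous controls alone. Leaving out 1 library gave 2 to 17. Members passing were 5 with age, 4 with weights (Spp1, Clu, Vim and Lcn2), and 0 to 2 with 1 library left out. In females, the 1 gene passing became 2 with a filter of 0.1 TPM, in voom or without both libraries, 3 with no filter, 9 with weights, 0 with the contrast alone, and 1 to 2 with 1 library left out. No member passed in females under any of these. For the mean of both sexes, the 3 genes became 1407 with age, 536 with weights, 8 with no filter, 15 without both libraries, and 2 to 11 with 1 left out. Members passing were then 5 with age, 5 with weights, 1 with name series, 1 without both, and 0 to 3 with 1 left out. For the interaction, 0 genes became 8 with weights, 1 with scaling without male Kl/Kl 3, 1 without both, and 0 to 2 with 1 left out, with 0 members throughout. Between the sexes, 5493 genes became 9786 with a filter of 0.1 TPM, 10493 with no filter and 9281 in voom, and 5207 to 5516 with 1 left out. The 3 members passing became 5 with scaling without male Kl/Kl 3 and 7 in voom, and stayed at 3 with any 1 library left out. The cause was not tested.

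Whether the replicate numbers pair the samples was not settled. Of 8 same-numbered pairs, 4 had deviations correlated above 0.1 (-0.156 to 0.235). Differently numbered pairs ran from -0.261 to 0.207. With a replicate block 6 genes passed in males, 1 in females, 3 for the mean, 0 for the interaction and 5403 between the sexes, and with the block and median-ratio scaling 1 passed in males. In limma no call of a member changed with the block alone, and in voom 8 of 10 members passed between the sexes with it, against 7 without. Its combination with scaling left Krt8 (0.01) and Krt18 (adjusted p = 0.0510) uncalled and called Clu (-0.46 log2, adjusted p = 0.00419) between the sexes.

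Some small differences turned round. Krt8 in females was -0.15 log2 with median-ratio scaling, with or without the block or male Kl/Kl 3, -0.17 in voom, -0.017 with age, and -0.057 to 0.11 with 1 library left out. Its mean over the sexes was -0.014 with scaling without male Kl/Kl 3. The Havcr1 interaction was 0.13 with the filter of 0.1 TPM, 0.10 with age in voom, 0.29 without female control 4, and -0.62 to 0.49 in voom with 1 library left out. Between the sexes, Clu was 0.057 with heterozygous controls alone and -0.10 to 0.023 with 1 library left out, and Lcn2 was -0.24 to 0.061. Krt8 was -0.027 with scaling without male Kl/Kl 3. Krt18 was -0.34 with scaling, with or without the block, -0.46 with scaling without male Kl/Kl 3, -0.40 in voom, -0.21 with weights, -0.0032 with age, -0.012 with heterozygous controls, -0.17 without both, and -0.12 to 0.086 with 1 library left out.

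Depth limits Havcr1, Sox9 and Cd44 most, with as few as 2, 12 and 22 reads in a library.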

Other observations

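Markers of the remaining cell types held no gene that passed in the Kl/Kl comparisons of either sex by limma or voom. In males, at an unadjusted p under 0.05 in limma, 3 of 20 proximal tubule, 2 of 4 thick ascending limb, 1 of 5 collecting duct, 2 of 6 fibroblast and mural, 0 of 3 endothelium, 2 of 3 podocyte and 3 of 4 haemoglobin genes were higher and 0 were lower as deposited. Of all tested genes 19.5% were higher at that threshold. After median-ratio scaling 1 thick ascending limb and 1 collecting duct gene were higher, 2 proximal tubule genes were lower, and 0 fibroblast and mural, endothelium, podocyte or haemoglobin genes were higher or lower. Of all tested genes 2.2% were then higher and 2.69% lower. Umod, the uromodulin of the thick ascending limb, averaged 181 TPM in male Kl/Kl kidneys against 122 TPM in male controls (0.55 ± 0.18 log2, limma adjusted p = 0.209). The 5 proliferation and 5 urothelium genes were below the TPM filter, and in voom 2 and 0 of them were higher in males at an unadjusted p under 0.05. Of all genes in voom, 2.95% were higher at that threshold. The proliferation genes summed to 0.698 to 2.44 TPM in male Kl/Kl kidneys against 0.515 to 0.675 TPM in male controls, and male Kl/Kl 3 had the smallest of the 4 Kl/Kl sums.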
